A study of Homo sapiens with 6 samples.

Results

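The transcripts of hypoxic H460 cells, an established human line of large cell lung cancer, were compared with and without a low dose of BAY 87-2243 on 2 of the 6 arrays of the series. One was the hypoxic array (16 h, 1% pO2) titled 1 nM, whose source name gives 10 nM, and the other was the hypoxic array with DMSO, the solvent, in place of the compound. A further hypoxic array carries the opposite pair of labels (titled 10 nM, source name 1 nM), so the dose of both is unsettled, and no dose was taken from their values. Each of 18417 genes was represented by its brightest probe set with a single gene symbol, by the mean over the 6 arrays, and its log2 difference was the array titled 1 nM minus the hypoxic DMSO array. The other arrays were normoxia with DMSO, normoxia with 100 nmol/L and hypoxia with 100 nmol/L of BAY 87-2243. All cultures were kept in medium with little serum for 16 h, and the study describes the compound as an inhibitor of HIF-1 activation that acts on mitochondrial complex I. Every condition is 1 array from 1 cell line, so no difference has a replicate check, there is no p-value, and genes are called by size alone, at 2-fold.

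Cells sense oxygen through prolyl hydroxylases, which need oxygen to mark the α subunits of hypoxia-inducible factor (HIF) for destruction by the VHL ubiquitin ligase. In hypoxia the α subunit is stabilised, pairs with ARNT and binds hypoxia response elements, whose core is ACGTG or GCGTG. Its targets serve glucose uptake and glycolysis, blood vessel growth, lipid storage, collagen modification and the turnover of mitochondria, and include the hydroxylases themselves.

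Values are given as deposited, as linear intensities in arbitrary units. The median intensity of the 6 arrays lay between 128 and 140, and the 2 arrays compared here had the highest medians (138 with DMSO and 140 on the array titled 1 nM). Their log2 values correlated at 0.990 over all genes, within the range of 0.980 to 0.992 for all pairs of arrays, as a description across genes that are not independent. The median log2 difference of all genes was -0.0018, and 95% of genes differed by less than 1.49-fold. KRT8 and KRT18, keratins of simple epithelia, were abundant (10272 and 11059 for KRT8, 8273 and 8239.9 for KRT18, DMSO first), as was KRT19 at 11774 and 9623. The adhesion genes EPCAM (64.5 and 73.5) and CDH1 (45.8 and 38.4) lay below the array medians. Of 13 measured markers of blood, endothelial, fibroblast and muscle cells, 0 differed by 1.5-fold, with a median log2 difference of -0.09. Their levels varied, and for 6 of the 13 the brighter of the 2 arrays reached its median. The leukocyte marker PTPRC was at 19.2 and 16.2, and CD68, of the same list, at 4763 and 4496 (DMSO first).

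The array titled 1 nM differed from hypoxia with DMSO by lower levels of a limited group of transcripts, many of which were high in hypoxia, and by higher levels of a smaller group. In the latter, 14 of 41 genes encode small nucleolar RNAs, against 0.95% of all genes. At 2-fold, 66 genes were lower (0.358% of 18417) and 41 were higher (0.223%). At 1.5-fold these counts were 468 (2.54%) and 377 (2.05%), and at 3-fold they were 5 (0.0271%) and 4 (0.0217%). Among the 11560 genes whose brighter array reached its median, 50 were lower by 2-fold (0.433%) and 30 higher (0.26%). A gene can pass this filter through the array on which it was high alone, which limits every count over these brighter genes. In RNA from whole cultures, fewer cells expressing a gene and less of its RNA per cell cannot be told apart.

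**Figure D1:**
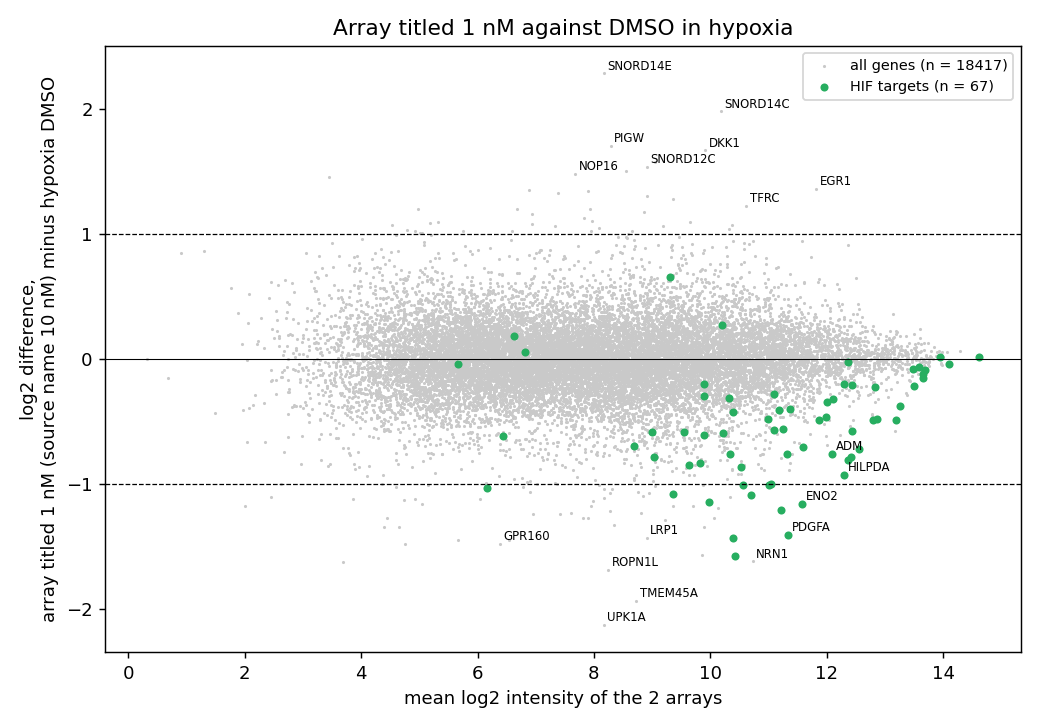
Log2 difference of the array titled 1 nM minus hypoxia with DMSO (vertical axis) against the mean log2 intensity of the 2 arrays (horizontal axis) for 18417 genes, with the 67 measured HIF targets in green and dashed lines at 2-fold. UPK1A (-2.13) and SNORD14E (2.28) lie at the extremes, and most green points lie below 0.

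The plot of difference against intensity shows that HIF targets sat mainly in the brighter range (62 of 67 reached the array median) and below 0, while the genes past 2-fold spread over low and high intensities.

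In the following, values in all arrays are given in the order normoxia with DMSO, normoxia with 100 nmol/L, hypoxia with DMSO, the array titled 10 nM, the array titled 1 nM and hypoxia with 100 nmol/L. UPK1A, a membrane protein of the bladder epithelium, had the largest decrease among the brighter genes, with intensities of 92.3, 79.0, 602, 433, 138 and 84.8 (log2 difference -2.13). The 2 hypoxic arrays at its upper end were those with DMSO and titled 10 nM, and the array titled 1 nM stood nearer to the normoxic arrays. TMEM45A, a transmembrane protein, was at 196, 96.4, 829, 861, 217 and 183 (log2 difference -1.94). NRN1, a surface protein first described for neurite growth, was at 597, 166, 2970.4, 2636, 966 and 442 (log2 difference -1.62). For both genes the array titled 1 nM lay nearer to normoxia with DMSO and to hypoxia with 100 nmol/L than to the pair formed by the other hypoxic arrays, and normoxia with 100 nmol/L was the lowest.

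PLIN2, which coats lipid droplets and is a HIF target, was at 368, 210.1, 2366, 2412, 793 and 279 (log2 difference -1.58). BHLHE41, a transcriptional repressor induced by HIF, was at 329.6, 284, 2195, 2146, 811 and 274 (log2 difference -1.44). PDGFA, a chain of platelet-derived growth factor, was at 542, 597, 4201, 4093, 1585 and 749.9 (log2 difference -1.41). In these 3 genes the array titled 1 nM took a middle position, more than 2-fold below hypoxia with DMSO and more than 2-fold above hypoxia with 100 nmol/L.

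The remaining large decreases reached the level of hypoxia with 100 nmol/L more closely. ROPN1L, a protein of the sperm flagellum, was at 542 in hypoxia with DMSO, 168 on the array titled 1 nM and 173 with 100 nmol/L. LRP1, an endocytic receptor, was at 787, 292 and 263 on the same arrays, and RRAGD, a Rag GTPase that recruits mTORC1 to lysosomes, was at 967, 375 and 252. CP, which encodes the ferroxidase ceruloplasmin, was at 154, 56.6 and 77.0, GPR160, an orphan receptor, at 139.8, 50.1 and 63.6, and TCP11L2 at 1603, 541 and 408. GPR160 and CP were the dimmest of these, and both lay below the array median on the array titled 1 nM.

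All 12 genes with the largest decreases exceeded their normoxic DMSO level by 2-fold or more on the hypoxic DMSO array (1.67% of all genes), a comparison that shares this array with the choice of the genes. Against the array titled 10 nM all 12 were also lower by 2-fold (0.429% of all genes), but the array titled 1 nM, by which they were chosen, is again a side of this comparison, so nothing is read from that count. On the array titled 1 nM, 9 of the 12 lay within 2-fold of normoxia with DMSO, 7 within 1.5-fold of hypoxia with 100 nmol/L, and 4 at least 2-fold above the latter (0.25% of all genes). Of all 18417 genes, 455 were lower and 144 higher by 2-fold than normoxia with DMSO, and 21 lower and 46 higher than hypoxia with 100 nmol/L. Nearly all genes thus lay within 2-fold of either array, so nothing is read from the 9 and the 7. Only 3 of the 12, PLIN2, BHLHE41 and PDGFA, were in the HIF target lists. Of all 50 brighter genes that were 2-fold lower, 36 were also 2-fold lower than on the array titled 10 nM and 49 were below it, with the array titled 1 nM shared in the same way. On the array titled 10 nM, 39 of the 50 exceeded normoxia with DMSO by 2-fold, against 1.44% of all genes. On the array titled 1 nM 37 lay within 1.5-fold of hypoxia with 100 nmol/L. Few of all genes differed between these 2 arrays even by 2-fold, so nothing is read from the 37. Another 8 remained at least 2-fold above hypoxia with 100 nmol/L (0.25% of all genes), and 0 lay 2-fold below it (0.114%).

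**Figure D2:**
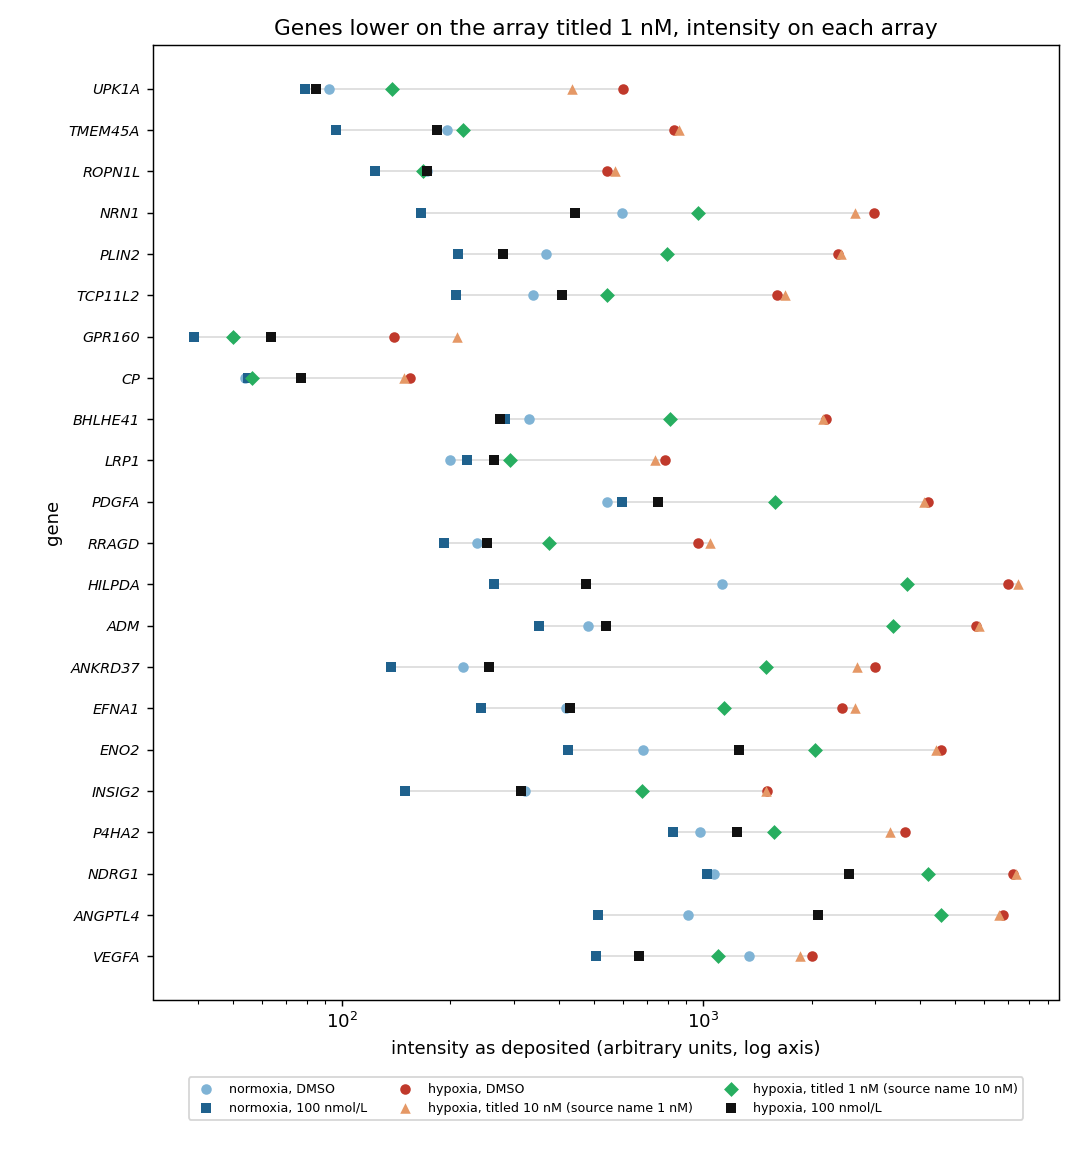
Intensity as deposited (log axis, arbitrary units) of the 12 largest decreases and of 10 further HIF targets on each of the 6 arrays, 1 marker per array. The green diamond of the array titled 1 nM lies left of the hypoxic arrays with DMSO and titled 10 nM in every gene shown, close to hypoxia with 100 nmol/L for ROPN1L (168 and 173) and far above it for HILPDA (3665 and 474).

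The upstream sequences of 4 HIF targets are shown because these genes had the largest decreases among targets with a HIF core motif in this window. Each run is the 250 bases before the transcription start in RefSeq (assembly GRCh38.p14), 5′ to 3′ on the strand of the gene, with ACGTG and GCGTG on either strand in capitals. Their positions are chr9:19127493-19127742 (PLIN2, minus strand), chr12:26125038-26125287 (BHLHE41, minus strand), chr7:520227-520476 (PDGFA, minus strand) and chr12:6914330-6914579 (ENO2, plus strand).
PLIN2: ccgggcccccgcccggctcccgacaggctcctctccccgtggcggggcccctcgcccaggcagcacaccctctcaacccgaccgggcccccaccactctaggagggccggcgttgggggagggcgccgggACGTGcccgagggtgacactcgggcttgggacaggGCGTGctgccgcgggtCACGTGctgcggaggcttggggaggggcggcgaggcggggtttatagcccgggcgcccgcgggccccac
BHLHE41: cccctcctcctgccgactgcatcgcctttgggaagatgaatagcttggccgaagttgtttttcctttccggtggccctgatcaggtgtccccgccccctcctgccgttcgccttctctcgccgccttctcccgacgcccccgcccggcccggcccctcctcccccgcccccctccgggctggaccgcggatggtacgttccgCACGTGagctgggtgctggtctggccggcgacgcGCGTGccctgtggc
PDGFA: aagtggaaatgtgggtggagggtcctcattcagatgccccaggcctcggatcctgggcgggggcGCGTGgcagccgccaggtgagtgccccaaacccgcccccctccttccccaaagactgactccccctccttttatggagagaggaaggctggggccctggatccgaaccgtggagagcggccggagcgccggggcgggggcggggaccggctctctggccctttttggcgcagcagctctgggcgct
ENO2: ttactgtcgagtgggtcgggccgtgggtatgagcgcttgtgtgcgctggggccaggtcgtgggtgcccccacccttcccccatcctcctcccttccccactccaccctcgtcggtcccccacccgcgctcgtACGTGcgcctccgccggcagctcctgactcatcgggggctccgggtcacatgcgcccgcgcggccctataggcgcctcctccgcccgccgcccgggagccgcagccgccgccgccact
PLIN2 held 4 matches, BHLHE41 held 3, and PDGFA and ENO2 held 1 each, counting CACGTG, which reads as ACGTG on both strands, as 2. Either motif was present in 43.1% of all 27305 promoter entries and in 51.1% of the 14239 entries of genes measured on the array. It was present in 46 of the 58 HIF targets with an entry (79.3%) and in 129 of 194 genes that were 2-fold higher on the array titled 10 nM than in normoxia (66.5%). Of the 50 genes with an entry among those 2-fold lower on the array titled 1 nM, 26 held it (52%), near the share for all array genes. These matches describe letters in a window and not binding.

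Of 71 listed HIF targets, 67 were measured here, and as a group they were lower on the array titled 1 nM. The lists had 61 of 67 members below 0 (against 50.3% of all genes), 28 lower by 1.5-fold (against 2.54%) and 11 lower by 2-fold (16.4%, against 0.358%). EDN1, the precursor of the vasoconstrictor endothelin, was the 1 member higher by 1.5-fold (log2 difference 0.66), and 0 were higher by 2-fold. The median log2 difference of the 67 was -0.49, beside -0.0018 for all genes. CA9, PGAM1 and SLC16A3 are not analysed here, for want of a probe set assigned to each alone.

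Genes for secreted and surface proteins had a median log2 difference of -0.69 over 14 measured members, 3 of which were lower by 2-fold (21.4%, against 0.358% of all genes, the background for the groups that follow as well). Besides PDGFA these were the ephrins EFNA1 (2427 and 1144, DMSO first) and EFNA3 (2926 and 1458), ligands of Eph receptors. ADM, the precursor of the vasodilator adrenomedullin, was at 479, 351, 5686, 5816, 3363 and 539 over the 6 arrays. Its log2 difference from hypoxia with DMSO was -0.76, and that from hypoxia with 100 nmol/L was 2.64. ANGPTL4, which blocks lipoprotein lipase, was at 911, 511, 6763, 6615, 4548 and 2088 (log2 difference -0.57). Both ADM and ANGPTL4 were thus within 2-fold of hypoxia with DMSO and far above their normoxic values. VEGFA, the growth factor of blood vessels, was at 1342, 505, 1999, 1858, 1099 and 664 (log2 difference -0.86), and here the array titled 1 nM lay below normoxia with DMSO. STC2, a secreted glycoprotein, showed the same order, with 1094 in normoxia, 1204 in hypoxia with DMSO and 676 on the array titled 1 nM.

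The 5 genes of lipid storage and sterol control were all below 0, with a median log2 difference of -0.93, and 2 of 5 were lower by 2-fold (40%). Beside PLIN2 this was INSIG2, which retains the sterol sensor SCAP in the endoplasmic reticulum, at 322, 150.0, 1503, 1494, 680.0 and 313 (log2 difference -1.14). HILPDA, an inhibitor of lipid droplet breakdown, was at 1127, 264, 6976, 7451, 3665 and 474 (log2 difference -0.93). HILPDA kept the widest distance to hypoxia with 100 nmol/L among the HIF targets, a log2 difference of 2.95, followed by ADM and by ANKRD37 (2.55).

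Of 20 genes of glucose uptake, glycolysis and glycogen, 1 was lower by 2-fold (5%) and the median log2 difference was -0.25. That gene was ENO2, an enolase isoform, at 684, 424, 4548, 4427, 2038 and 1256 (log2 difference -1.16). Next came PFKFB4 (-0.85), which sets the level of a glycolytic activator, the muscle-type glycogen synthase GYS1 (-0.76) and the aldolase isoform ALDOC (-0.72). The glucose transporter SLC2A1 (-0.15), PGK1 (-0.09), ALDOA (-0.02) and LDHA (0.02) lay close to 0. The group was also near hypoxia with 100 nmol/L, with a median log2 difference of 0.05 from it. Hypoxia with 100 nmol/L itself had a median of only -0.29 from DMSO in this group.

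Collagen modifying enzymes had a median of -0.86 over 6 members, and 3 were lower by 2-fold (50%). P4HA2, a subunit of collagen prolyl hydroxylase, was at 981, 824, 3625, 3285, 1568 and 1243 (log2 difference -1.21). The lysyl oxidases LOXL2 (2148 and 1068, DMSO first) and LOX (102 and 50.1) crosslink collagen, and LOX was below the median of both arrays. In the group for mitochondria, mitophagy and stress the median of 11 members was -0.37. COXFA4L2, listed under its older name NDUFA4L2 and known to lower complex I activity in hypoxia, was lower by 2-fold (956 and 451, log2 difference -1.08). ANKRD37, an ankyrin repeat protein, was at 216, 137, 2995, 2673, 1499 and 255, just short of 2-fold (log2 difference -0.999). The mitophagy receptor BNIP3 (-0.37), the kinase PDK1 (-0.21), which inhibits pyruvate dehydrogenase, and the mTORC1 inhibitor DDIT4 (-0.07) were within 1.5-fold.

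Genes of feedback, chromatin and transcription were all below 0 (11 of 11, median -0.58), and only BHLHE41 was lower by 2-fold. The oxygen-sensing hydroxylases EGLN1 and EGLN3 had log2 differences of -0.57 and -0.48, and the histone demethylase KDM6B of -0.79. The HIF subunits and their partners were within 1.5-fold in all 7 measured members, with 0.24 for HIF1A, -0.34 for EPAS1, which encodes HIF-2α, -0.25 for ARNT and -0.23 for VHL. These are RNA levels, and the arrays carry no measure of HIF protein.

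**Figure D3:**
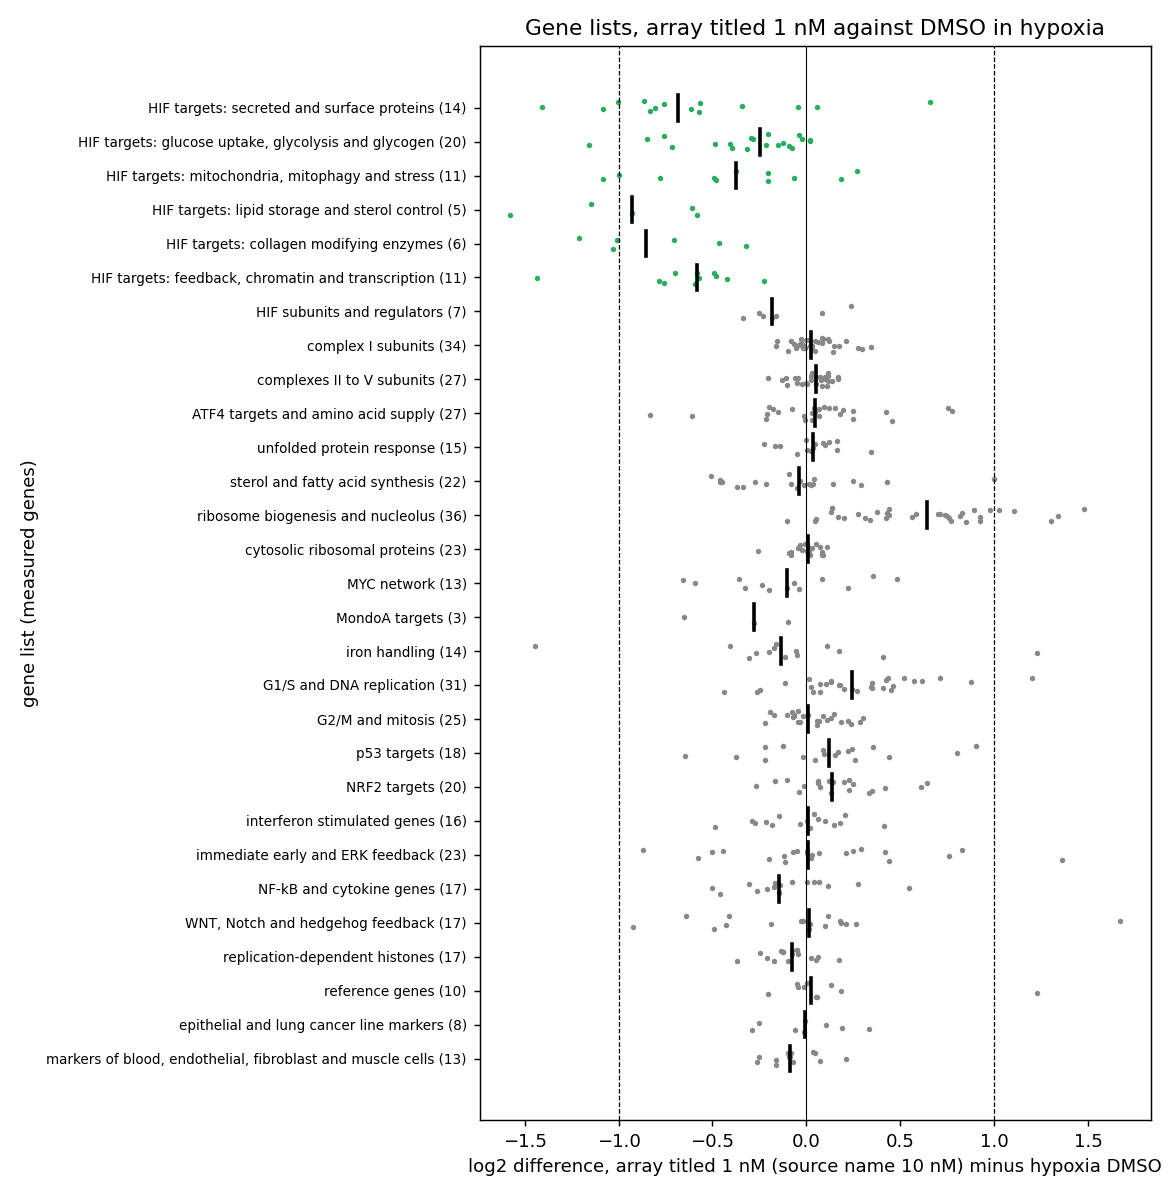
Log2 difference of the array titled 1 nM minus hypoxia with DMSO for every measured gene of each list, with the number of measured genes in brackets, black bars at the list medians, HIF target lists in green and dashed lines at 2-fold. The HIF target lists have medians from -0.93 to -0.25, ribosome biogenesis stands at 0.64 and the complex I subunits at 0.02.

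Set against the remaining arrays, the array titled 1 nM lay between hypoxia with DMSO and hypoxia with 100 nmol/L for 55 of 67 HIF targets, and 6 more were below both. The share of all genes in such a position was not counted, so the 55 have no background beside them. The median log2 difference of the 67 targets from hypoxia with DMSO was -0.49 on this array, 0.03 on the array titled 10 nM and -0.78 with 100 nmol/L, and these 3 comparisons share the DMSO array. The number of targets lower by 2-fold was 11, 0 and 26 in the same order, beside 0.358%, 0.206% and 1.01% of all genes. Relative to normoxia with DMSO, the targets on the array titled 1 nM still had a median log2 difference of 0.49 and 18 were higher by 2-fold (0.782% of all genes). The median over targets of the difference from hypoxia with 100 nmol/L was 0.24, and 10 were at least 2-fold above it (0.25% of all genes). By group this distance was 1.12 for lipid storage and 0.76 for secreted proteins, against 0.19 for collagen modification and 0.05 for glycolysis. The median log2 difference of hypoxia with 100 nmol/L from DMSO was itself -2.27, -1.48, -1.05 and -0.29 in the same order. A small distance in glycolysis thus goes with a small difference at 100 nmol/L. The difference between groups was not tested.

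Gene sets were also chosen on arrays that are not in the comparison, and then read in it, each limited to genes whose brighter array of the pair used for the choice reached its median. Of 246 genes 2-fold higher on the array titled 10 nM than on the normoxic DMSO array, 223 were below 0 in the comparison of the array titled 1 nM with DMSO (against 50.3% of all genes). In the same comparison 135 of the 246 were lower by 1.5-fold (against 2.54% of all genes) and 39 by 2-fold (15.9%, against 0.358%). Their median log2 difference was -0.63, and it was -0.60 for the 217 genes that are not in the HIF lists. SNORD54 was the 1 gene of this set that was 2-fold higher. Of 325 genes that were at least 2-fold lower on the array titled 10 nM than in normoxia, 78 were below 0 (against 50.3% of all genes). Of these 325, 62 were higher by 1.5-fold (19.1%, against 2.05% of all genes) and 13 by 2-fold (4%, against 0.223%), with a median of 0.25. With the array titled 10 nM as reference, on which these genes were chosen, the median was 0.10 and 4 were higher by 2-fold.

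The same reading was made for sets taken from hypoxia with 100 nmol/L against the array titled 10 nM, chosen after the values were seen. All 131 genes lower by 2-fold in that comparison (0.798% of all genes before the filter on dim genes) were below 0 on the array titled 1 nM minus DMSO, from -2.13 in UPK1A to -0.34 in MFSD2A, a lysophospholipid transporter. Their median was -0.81, with 117 lower by 1.5-fold (89.3%, against 2.54% of all genes) and 39 by 2-fold (29.8%, against 0.358%). Of 46 genes higher by 2-fold in that comparison (0.293% of all genes before that filter), 45 were above 0 (49.7% of all genes), 37 were higher by 1.5-fold (80.4%, against 2.05%) and 17 by 2-fold (37%, against 0.223%), with a median of 0.91. These sets have no array in common with the comparison they describe.

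**Figure D4:**
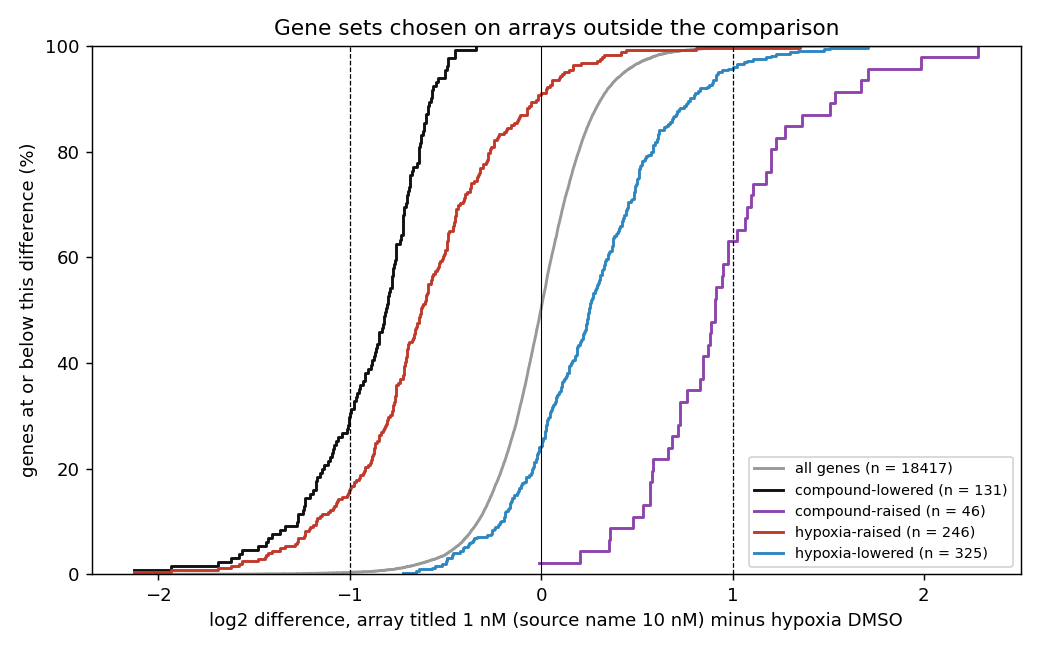
Cumulative share of genes (%) at or below each log2 difference of the array titled 1 nM minus hypoxia with DMSO, for all 18417 genes and for 4 sets chosen on arrays outside this comparison (hypoxia sets from the array titled 10 nM against normoxia with DMSO, compound sets from hypoxia with 100 nmol/L against the array titled 10 nM). The curves of the compound-lowered (median -0.81) and hypoxia-raised genes (-0.63) lie left of all genes, and those of the hypoxia-lowered (0.25) and compound-raised genes (0.91) lie right of it.

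On the higher side, small nucleolar RNAs, which guide chemical modification of ribosomal RNA, made up 6 of the 12 largest increases among the brighter genes, of which 0.865% are small nucleolar RNA genes. The brightness filter takes the brighter of both arrays, and SNORD14E, SNORD52 and SNORD54 lay below the median with DMSO, so they passed it through the array on which they were high. The same held for NOP16 among the 12 largest increases. Among the 12 largest decreases UPK1A, CP and GPR160 passed it through the DMSO array only. SNORD14E was at 210.5, 928, 130.4, 153, 635 and 1151 (log2 difference 2.28), and SNORD14C at 1096, 3315, 583, 816, 2305 and 3234 (log2 difference 1.98). Both were lowest in hypoxia with DMSO and highest on arrays with 100 nmol/L. They are similar copies in introns of the chaperone gene HSPA8, so their signals may be shared, while HSPA8 itself was at 16872 and 17561 (DMSO first). SNORD12C was at 282 and 819 with its host ZFAS1 at 1590.4 and 1733, and SNORD54 at 73.9 and 188 with its host RPS20 at 9031 and 9280.5. SNORD75 (1.58) and SNORD52 (1.33) completed the 6. Over all 175 measured small nucleolar RNA genes, a list added after the values were seen, 14 were higher by 2-fold (8%, against 0.223% of all genes), 1 was lower, and the median was 0.04. With the array titled 10 nM as reference 4 of the 175 were higher by 2-fold.

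Among the protein genes, DKK1, a secreted WNT antagonist, was at 1057, 3490.4, 541, 727, 1722 and 3119.5 (log2 difference 1.67). EGR1, an immediate early transcription factor, was at 1517, 5751, 2248, 2433, 5780.4 and 6727 (log2 difference 1.36). In both genes the array titled 1 nM stood above normoxia with DMSO, and for EGR1 it matched normoxia with 100 nmol/L. PIGW, which acylates inositol in the GPI anchor pathway, was at 1146, 1067, 173, 263, 564 and 903 (log2 difference 1.71), and PPRC1, a coactivator related to PGC-1α, at 1015, 1016, 222, 259.5, 632 and 797 (log2 difference 1.51). For these 2 the array titled 1 nM lay between the low values of hypoxia with DMSO and the high values of the normoxic arrays.

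Of 36 measured genes of ribosome biogenesis and the nucleolus, 5 were higher by 2-fold (13.9%, against 0.223% of all genes), 18 by 1.5-fold (50%, against 2.05%), and 1 was below 0, with a median of 0.64. With the array titled 10 nM as reference 0 of the 36 were higher by 2-fold. The 5 were NOP16, LYAR, MAK16, URB2 and UTP15, nucleolar proteins of ribosome assembly. NOP16 was at 558, 522, 123, 218, 343 and 398 (log2 difference 1.48) and LYAR at 563, 603, 149.7, 278, 379 and 472 (log2 difference 1.34). MAK16 (1.30), URB2 (1.11) and UTP15 (1.02) followed. The median of the list from hypoxia with DMSO was also above 0 on the array titled 10 nM (0.24) and with 100 nmol/L (0.74), comparisons that share the DMSO array, and the median of the array titled 1 nM minus the array titled 10 nM was 0.37. The 23 measured proteins of the cytosolic ribosome itself had a median of 0.01 and 0 past 1.5-fold.

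**Figure D5:**
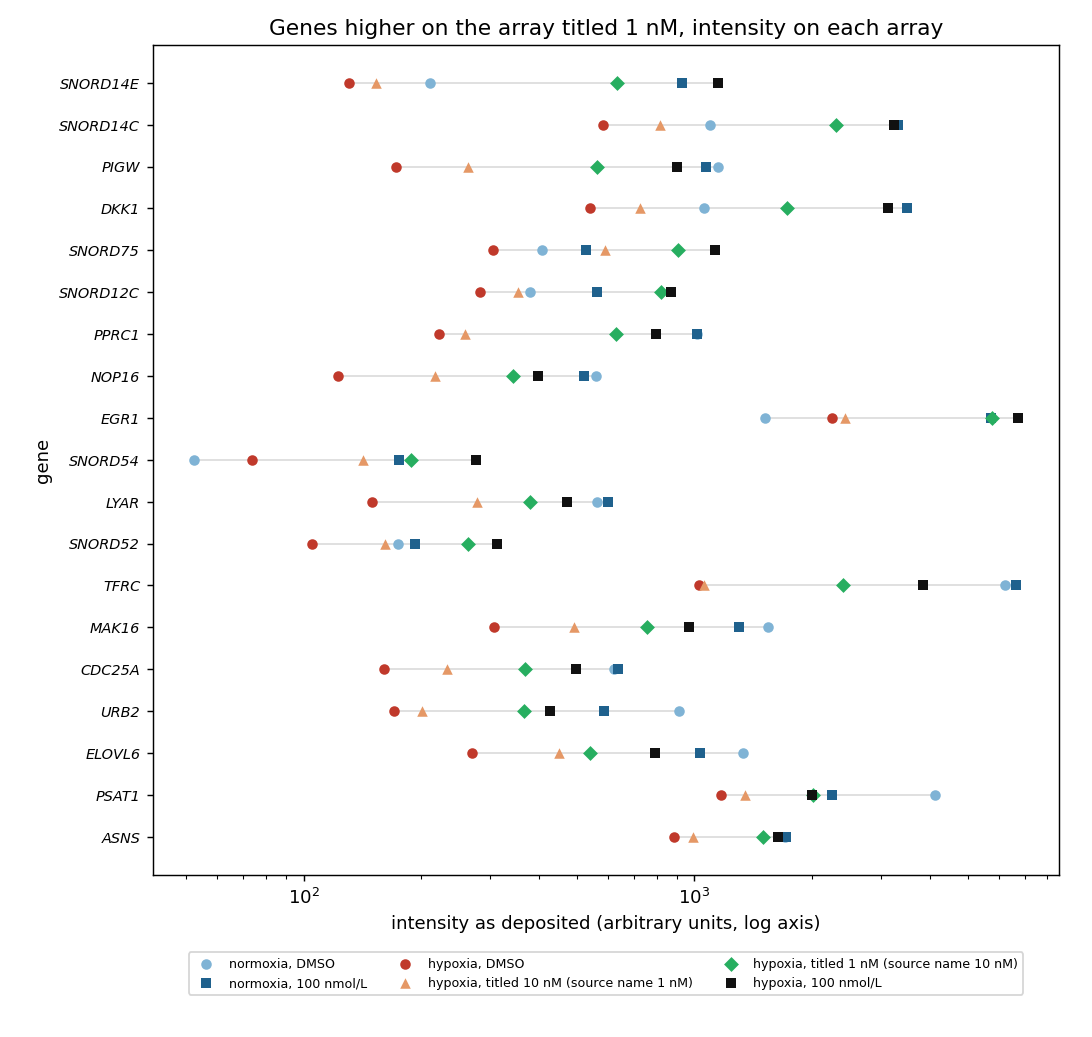
Intensity as deposited (log axis, arbitrary units) of the 12 largest increases and of 7 further genes on each of the 6 arrays, 1 marker per array. The array titled 1 nM (green diamond) lies right of hypoxia with DMSO in every gene shown, and the array titled 10 nM lies between them, as in NOP16 (123, 218 and 343).

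All 12 of the largest increases were above 0 on the array titled 10 nM minus DMSO as well (50.8% of all genes), which shares the DMSO array. On the array titled 1 nM, 7 of the 12 exceeded the array titled 10 nM by 2-fold (0.217% of all genes). The array titled 1 nM, by which they were chosen, is a side of this comparison, so nothing is read from the 7. The other 5, SNORD75, NOP16, SNORD54, LYAR and SNORD52, were within 2-fold of the array titled 10 nM. So were MAK16, URB2, UTP15 and CDC25A, and on the lower side COXFA4L2, LOXL2 and LOX. Of the 30 brighter genes that were 2-fold higher than with DMSO, 10 were 2-fold higher than on the array titled 10 nM and 29 were above it, a comparison that again shares the array titled 1 nM with the choice of the genes. Of the 30, 26 lay within 1.5-fold of hypoxia with 100 nmol/L. Over all 18417 genes only 21 were lower and 46 higher by 2-fold than in that condition, so nothing is read from the 26. A level 2-fold or more below normoxia was seen for 13 of the 30 on the array titled 10 nM (1.85% of all genes).

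Among further pathways, iron handling held 1 of 14 measured genes past 2-fold in each direction (7.14%, against 0.223% of all genes higher and 0.358% lower). TFRC, the transferrin receptor that brings iron into cells, was at 6222, 6633, 1028, 1056, 2405 and 3841 (log2 difference 1.23), above hypoxia with DMSO but below hypoxia with 100 nmol/L and both normoxic arrays. CP was the gene on the lower side. Of 31 genes of the G1/S transition and DNA replication, 4 were below 0 (against 50.3% of all genes) and the median was 0.24. CDC25A, the phosphatase that activates cyclin-dependent kinases, was the 1 higher by 2-fold (161 and 369.5, log2 difference 1.20), or 3.23% against 0.223% of all genes. POLE2 (0.88), a subunit of DNA polymerase epsilon, the uracil glycosylase UNG (0.71) and the replication licensing factor CDC6 (0.62) were higher by 1.5-fold. With CDC25A these were 12.9% of the list, against 2.05% of all genes. With the array titled 10 nM as reference the median of the list was 0.13 and 0 were higher by 2-fold. The 25 genes of G2/M and mitosis had a median of 0.01 and 0 past 1.5-fold.

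As background for the lists that follow, 2.05% of all genes were higher and 2.54% lower by 1.5-fold, and 0.223% were higher by 2-fold. In the list of ATF4 targets and amino acid supply the median of 27 genes was 0.05. The serine synthesis enzyme PSAT1 (0.78) and asparagine synthetase ASNS (0.76) were higher by 1.5-fold, and STC2 (-0.83) and the lipoprotein receptor VLDLR (-0.61) were lower. Of 23 immediate early and ERK feedback genes EGR1 was the 1 past 2-fold, the early gene IER2 (0.83) and the feedback inhibitor SPRY4 (0.76) were higher by 1.5-fold, and SPRY1 (-0.87) was lower by 1.5-fold. FOS (0.02) and DUSP6 (0.25), of the same list, were within 1.5-fold. In the WNT, Notch and hedgehog list, DKK1 was higher, and the hedgehog receptor PTCH1 (716 and 378, log2 difference -0.92) and the Notch target HEY1 (-0.64) were lower by 1.5-fold. Of p53 targets, the kinase PLK3 (0.91) and the phosphatase TIGAR (0.80) were higher by 1.5-fold and TP53INP1 (-0.65) lower, around a median of 0.12 for 18 genes. Of 20 NRF2 targets, GCLM (0.64), a gene of glutathione synthesis, and SRXN1 (0.61) were higher by 1.5-fold, and the median was 0.14. In sterol and fatty acid synthesis the fatty acid elongase ELOVL6 (270.2 and 540.4) was the 1 gene higher by 1.5-fold, while the median of 22 genes was -0.04. The MYC antagonist MXD1 (-0.66) and, of 3 measured MondoA targets, ARRDC4 (-0.65) were lower by 1.5-fold, and the 13 MYC network genes had a median of -0.10.

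Several lists held no gene past 1.5-fold. The 34 measured subunits of complex I, the enzyme on which the compound is described to act, had log2 differences from -0.16 to 0.34 with a median of 0.02, and the 27 subunits of complexes II to V had a median of 0.05. The medians were 0.03 for the unfolded protein response, 0.01 for interferon stimulated genes, -0.14 for NF-kB and cytokine genes and -0.08 for replication-dependent histones. Of the 10 reference genes TFRC was the only 1 past 1.5-fold, and ACTB (0.00) and B2M (-0.05) lay near 0. FOXO3 (0.09) and GATA4 (0.08), which the study's text names, were within 1.5-fold. Both were dim, with FOXO3 below the median of both arrays (103 and 110, DMSO first) and GATA4 near it (148 and 156). EGLN2, the negative control gene of the study, has no probe set assigned to it alone and is not analysed here.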

How the data were processed

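RNA of H460 cells was hybridised to Affymetrix Human Gene 1.0 ST arrays, 1 per condition. The deposited table holds linear intensity values, as the authors processed them, of 33297 probe sets on 6 arrays. The methods describe background correction and evaluation of the intensities in MAS 5.0 and further statistics in Expressionist, whereas the submitters' processing notes name RMA, and the genome build is not given in the sources used here. These methods treat background differently, which bears most on dim probe sets, and the number of arrays limits the precision.

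Probe sets were named through GEO's platform annotation and RefSeq (GRCh38.p14). There were 19460 probe sets with 1 symbol, 1754 with several and 12083 not listed, and 769 of 18417 genes had more than 1 probe set. Values were taken to log2 with no pseudocount or filter. Genes named are the 12 largest decreases and increases among genes whose brighter array reached its median, up to 4 members of each of 29 gene lists, and 15 genes the study's text names, 13 of which were measured. UTP15, LOX, GPATCH4, MFSD2A, the host genes of small nucleolar RNAs, and other list members given for context were chosen after their values were seen. Members, lists and alternatives were chosen with earlier results of these data known. The alternatives were quantile normalization, median centring, 32 added before log2, brighter genes only (mean over the 6 arrays), averaging all probe sets of a gene, the array titled 10 nM as reference, and thresholds of 1.5-fold and 3-fold. For lists, the mean in place of the median was a further alternative. The steps were checked on simulated data. Python 3.11.15, numpy 2.4.6, pandas 2.3.3 and matplotlib 3.10.9 were used.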

Additional observations from a re-analysis of the deposited data

How the results depend on the processing

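Counts moved with the size rule and with the treatment of dim genes. At 1.5-fold, 468 genes were lower, 377 higher and 28 HIF targets lower, and at 3-fold the counts were 5, 4 and 0. With 32 added to each intensity, which shrinks differences of dim genes, 36 genes were lower and 21 higher, and among brighter genes only 43 were lower. Quantile normalization gave 74 lower and 41 higher, median centring 72 and 39, the mean of the probe sets 66 and 40, and the array titled 10 nM as reference 79 and 40, with 11 or 12 HIF targets lower in these. The median or mean of the HIF targets stayed between -0.53 and -0.48 and that of the hypoxia-raised genes between -0.65 and -0.60. The median or mean of the hypoxia-lowered genes was between 0.10 and 0.27. The means were -0.53, -0.60 and 0.27 for these lists in the same order. The -0.65 and the 0.10 came with the array titled 10 nM as reference, on which both sets were chosen, so these 2 values are no check of stability. The dimmer genes had a median log2 difference of -0.17 on the array titled 10 nM minus hypoxia with DMSO, and with the array titled 10 nM as reference, 10 of the 35 genes past 2-fold that the rule names did not reach it (SNORD75, NOP16, SNORD54, LYAR, SNORD52, COXFA4L2, LOXL2, MAK16, URB2 and CDC25A), nor did LOX (-0.97), UTP15 (0.32) and GPATCH4 (0.59), named outside the rule. With 32 added these were EFNA3, LOXL2 and URB2, and outside the rule LOX (-0.71), UTP15 (0.95) and GPATCH4 (0.90). None of the 35 changed sign, but with the array titled 10 nM as reference 3 of the 66 lower genes and 3 of the 41 higher genes did. That reference also took the small nucleolar RNA genes 2-fold higher from 14 to 4 and those of ribosome biogenesis from 5 to 0. No paired analysis was possible because each condition has 1 array, and for the same reason no array could be left out.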

Other observations

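Probe sets without a single symbol were counted apart from named ones in the comparison of the array titled 1 nM with hypoxia and DMSO. Among 3920 brighter probe sets not listed in the platform annotation, 70 were higher by 2-fold (1.79%) and 17 lower (0.434%). Among 12178 brighter probe sets with 1 symbol, 31 were higher (0.255%) and 51 lower (0.419%). Of 1041 brighter probe sets with several symbols, 12 were higher (1.15%) and 0 lower. Of the 70 unlisted ones, 23 were also 2-fold higher on the array titled 1 nM than on the array titled 10 nM, and of the 31 with 1 symbol 11 were, comparisons that share the array titled 1 nM. The transcripts behind the unlisted probe sets are not named here.

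Within the small nucleolar RNAs, 12 of 112 measured SNORD genes (10.7%), which guide methylation, were higher by 2-fold, and 2 of 61 SNORA genes (3.28%), which guide pseudouridylation. Over all genes this share was 0.223%. The median log2 difference of the SNORD genes was 0.08. The difference between these classes was not tested. GPATCH4 had 2 probe sets that disagreed, with log2 differences of 1.02 and -0.11.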
